A study of Homo sapiens with 4 samples.

Results

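The Polycomb genes described here are 10 subunits of the Polycomb repressive complexes, taken by gene symbol (*EZH1*, *EZH2*, *EED*, *SUZ12*, *RBBP4*, *RBBP7*, *JARID2*, *BMI1*, *CBX2* and *RNF2*). All 10 were found among the 26364 genes listed for each sample. RNA-seq had been performed on BE(2)C, a human neuroblastoma cell line with amplified MYCN. Cells of the 2 Ctrl samples, labelled wild type, had been transfected with a non-targeting siRNA, and cells of the 2 MYCN KD samples with an siRNA against MYCN. The labels give 80 nM siRNA for 6 h by lipid transfection in all 4 samples and RNA extraction on the next day, while the study's methods give a lower final concentration. With 1 siRNA per condition and 1 cell line, an effect of that siRNA on other transcripts cannot be told apart from loss of MYCN.

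Polycomb repressive complex 2 (PRC2) methylates histone H3 at lysine 27. EZH2 or its paralog EZH1 is the catalytic subunit, EED and SUZ12 are needed for its activity, and RBBP4 and RBBP7 are histone-binding WD40 proteins that also sit in other chromatin complexes. JARID2 is an accessory subunit of one form of PRC2. Polycomb repressive complex 1 (PRC1) ubiquitinates histone H2A through RNF2 (RING1B) or RING1, each paired with a PCGF protein, and BMI1 is PCGF4. CBX2 is one of the chromodomain subunits by which canonical PRC1 reads methylated lysine 27. EZH2 is known to be high in dividing cells and EZH1 to persist in resting ones.

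MYCN and its partner MAX bind the E-box CACGTG, and E2F factors, which drive S-phase genes, bind sites such as TTGGCGC and TTCCCGC. These letters were searched on both strands in the RefSeq promoter windows of GRCh38.p14, from 250 bases before to 50 bases after each start. Of the 10 members, 9 matched that table by symbol, with 14 windows, and CBX2 was the exception. The E-box was found in 2 of the 9, against 8.78% of the 27305 genes with a window. Either E2F form was found in 4 of the 9, against 11.0% of those genes, which had 35116 windows. Among 44 further Polycomb genes with a window, the E-box was found in 10 and either E2F form in 8. Shown here, to place these letters, are the 250 bases before the first listed start of the 5 members with a match, with the motifs in capitals.
EZH2, chr7:148884292-148884541, minus strand: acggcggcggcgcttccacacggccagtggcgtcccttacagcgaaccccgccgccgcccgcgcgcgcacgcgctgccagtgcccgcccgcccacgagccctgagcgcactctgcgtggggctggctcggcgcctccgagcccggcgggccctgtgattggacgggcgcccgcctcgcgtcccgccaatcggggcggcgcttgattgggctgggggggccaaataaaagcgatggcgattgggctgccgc
RBBP4, chr1:32650958-32651207, plus strand: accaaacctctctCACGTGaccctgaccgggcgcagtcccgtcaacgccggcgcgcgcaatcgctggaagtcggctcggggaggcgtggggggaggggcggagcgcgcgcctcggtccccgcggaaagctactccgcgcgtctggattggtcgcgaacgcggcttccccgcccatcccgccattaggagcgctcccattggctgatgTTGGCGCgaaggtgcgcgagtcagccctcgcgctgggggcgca
SUZ12, chr17:31936757-31937006, plus strand: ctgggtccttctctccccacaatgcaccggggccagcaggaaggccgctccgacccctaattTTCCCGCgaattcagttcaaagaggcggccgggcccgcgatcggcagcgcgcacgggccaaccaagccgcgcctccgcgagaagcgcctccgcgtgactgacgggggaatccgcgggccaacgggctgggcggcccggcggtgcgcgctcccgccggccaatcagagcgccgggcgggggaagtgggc
RNF2, chr1:185045308-185045557, plus strand: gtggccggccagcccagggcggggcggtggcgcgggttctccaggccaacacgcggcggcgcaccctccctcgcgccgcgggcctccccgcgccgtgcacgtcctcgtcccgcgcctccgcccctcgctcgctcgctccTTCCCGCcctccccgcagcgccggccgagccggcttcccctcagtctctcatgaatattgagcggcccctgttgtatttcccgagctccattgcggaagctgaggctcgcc
BMI1, chr10:22320849-22321098, plus strand: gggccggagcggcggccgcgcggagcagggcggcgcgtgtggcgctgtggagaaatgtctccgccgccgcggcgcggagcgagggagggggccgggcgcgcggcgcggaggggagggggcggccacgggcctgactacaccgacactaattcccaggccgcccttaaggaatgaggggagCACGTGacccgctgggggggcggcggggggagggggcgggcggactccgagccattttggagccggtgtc
RBBP4 holds the E-box 237 bases before its start and TTGGCGC 43 bases before it, with no overlap of the motifs. BMI1 holds the E-box, 70 bases before the start. SUZ12 and RNF2 hold TTCCCGC, 188 and 111 bases before their starts. In EZH2 the form TTGGCGC begins 2 bases past the start and so lies outside the bases shown, which hold no capitals. These matches are letters in a window, and binding was not analysed here. Promoter coordinates are those of GRCh38.p14, and the gene positions that follow are those of GRCh37 (hg19), the build of the authors.

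The siRNA target was examined first. *MYCN* stood at 1068 and 1073 RPKM (reads per kilobase, scaled to depth) in Ctrl against 720.2 and 718 in MYCN KD. It fell by 0.57 on the log2(RPKM + 1) scale (SE 0.0286, adjusted p = 0.00361 in limma). The adrenergic identity of the cells was visible in all samples, as 12 of 12 adrenergic neuroblastoma markers passed the filter on low values. Their summed level was 3794 to 4100 RPKM in Ctrl and 5296 to 5716 in MYCN KD. Of 6 leukocyte markers, 5 had a mean below 1 RPKM (ITGAM at 0), and their sum was 1.58 to 1.80 RPKM in Ctrl and 1.57 to 1.77 in MYCN KD. Of 6 epithelial or endothelial markers, 5 had a mean below 1 RPKM, and the sum, mostly KRT19, was 14.0 to 14.8 RPKM in Ctrl and 26.3 to 27.6 in MYCN KD. Of 8 mesenchymal markers, 3 had a mean below 1 RPKM (PRRX1 at 0), and of the 5 tested 3 were called higher and 0 lower. These were COL1A1 (log2 fold change 0.67, adjusted p = 0.00365), DCN (0.66, adjusted p = 0.0269) and PDGFRB (0.16, adjusted p = 0.0496). The mesenchymal sum was 68.8 to 74.6 RPKM in Ctrl and 67.5 to 73.1 in MYCN KD, most of it TWIST1 (39.1 to 49.5 RPKM, not called). The part of such cells in the Polycomb values was not tested. In bulk RNA, fewer cells that express a gene cannot be told apart from less of its RNA per cell.

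Differences were tested in limma on log2(RPKM + 1) over 11411 genes whose mean RPKM was 1 or more, a scale that understates the change of genes with low levels. The reads behind the values, recovered from their steps, totalled 29055819 to 34142988 per sample. As the authors had adjusted them with RUVSeq, these totals are not the raw depth, and the reads given per gene are adjusted counts. The gap between replicates ran in opposite directions in Ctrl and MYCN KD for 10 of 10 members and for 99.4% of the tested genes, so the replicate error is known less well than 4 separate samples would allow. In 8 of the 10 members Ctrl replicate 2 was above Ctrl replicate 1, and CBX2 and BMI1 had the opposite order. The labels do not say whether replicates were separate cultures, and p-values measure the spread between these samples.

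Of the 9 members past the filter, *EZH2* and *RBBP4*, the 2 called, were lower in MYCN KD, and 0 were higher. Of all tested genes 48.1% were called, 22.8% lower and 25.3% higher. The members' share called lower was close to that of all genes, while fewer of them were called in all and 0 were called higher. At an unadjusted p under 0.05 limma gave 3 members lower and 0 higher. Adjustment only raises p, so of all tested genes at least 48.1% passed there, with at least 22.8% lower and 25.3% higher. Limma voom on the recovered reads called 2 members lower and 0 higher (adjusted). All 9 fold changes were negative, as were those of 5377 of the 11411 tested genes. The members ranged from -0.51 to -0.06, with a median of -0.17 against 0.03 over all tested genes. However, RBBP7 turned to 0.0046 with samples rescaled to 1 total. EZH1 turned to 0.0044 without Ctrl replicate 2 and to 0.0015 without MYCN KD replicate 2. The members' median was -0.11 with samples rescaled to 1 total, against 0.078 over all tested genes. It was -0.094 against 0.046 without Ctrl replicate 2 and -0.096 against 0.045 without MYCN KD replicate 2. In 5 of the 9 both MYCN KD values lay below both Ctrl values, as in 35.8% of tested genes, and in 0 of them above, as in 40.4% of tested genes. The share of tested genes called was 48.1% with a pseudocount of 0.1, 50.6% with a minimum mean of 5 RPKM, 47.3% with samples rescaled to 1 total and 51.7% with quantile normalization. It was 48.0% without a variance trend, 34.4% with the replicate block, 48.1% with limma voom, 30.0% without a filter, 43.5% or 43.6% without either Ctrl sample and 42.2% or 42.6% without either MYCN KD sample.

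**Figure D1:**
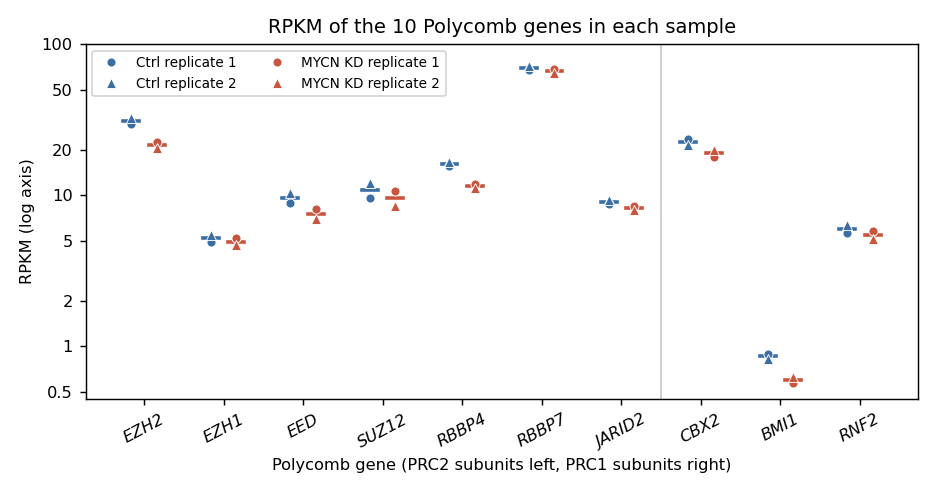
RPKM (log axis) of each Polycomb gene in each of the 4 samples, Ctrl in blue and MYCN KD in red, with circles for replicate 1, triangles for replicate 2 and a bar at each group mean. RBBP7 is the highest, from 64.6 to 71.3 RPKM, BMI1 is the lowest, from 0.572 to 0.897 RPKM, and EZH2 and RBBP4 show groups that stand apart.

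The levels of the 10 genes, per length, spanned a wide range. In Ctrl the order from the top was RBBP7, EZH2, CBX2, RBBP4, SUZ12, EED, JARID2, RNF2, EZH1 and BMI1. The ranges of SUZ12 and EED and those of EED and JARID2 overlapped, and the other neighbours in this order did not. In MYCN KD JARID2 came before EED, the rest of the order was as in Ctrl, and RNF2 and EZH1 overlapped as well.

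The catalytic subunit *EZH2* (chromosome 7, 148504349 to 148581413, minus strand, 20 exons in the canonical transcript) stood at 29.6 and 32.6 RPKM in Ctrl against 22.6 and 20.6 in MYCN KD. Both MYCN KD samples were below both Ctrl samples. These values rest on 3067 and 3163 reads in Ctrl and 1990 and 1933 reads in MYCN KD. EZH2 fell by 0.51 on the log2 scale (SE 0.0775, 95% interval -0.74 to -0.28, adjusted p = 0.0162 in limma), and its call held in each alternative run on single genes. Its paralog *EZH1* (chromosome 17, 40852293 to 40897067, minus strand) stood at 4.92 and 5.45 RPKM in Ctrl against 5.19 and 4.70 in MYCN KD. The EZH1 values overlapped between conditions, and the log2 fold change of -0.06 had a 95% interval of -0.28 to 0.16 (adjusted p = 0.561).

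The share of EZH1 in the summed RPKM of the pair was 14.3% and 14.3% in Ctrl against 18.7% and 18.6% in MYCN KD. The groups did not overlap, with a difference of 4.34 percentage points and an SD within a condition of 0.0599 and 0.0783 points. With 2 samples against 2, a two-sided exact permutation test cannot go below p = 0.3333, which is the value it gave here. EZH2 made up 81.3% and 81.4% of the sum in the MYCN KD samples.

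Of 14 cell cycle genes tested, 9 were called lower, 0 higher and 5 were not called, against 22.8% of all tested genes called lower. Fold changes were negative in 13 of these 14, with a median of -0.43. Their summed level was 1470 to 1519 RPKM in Ctrl and 1040 to 1057 in MYCN KD. The largest falls were those of the DNA clamp PCNA (log2 fold change -1.18, adjusted p = 0.0400), the mitotic kinase AURKA (-0.70, adjusted p = 0.00359) and the replication helicase subunit MCM2 (-0.67, adjusted p = 0.00604). MKI67, chosen after its values were seen, stood at 42.9 and 46.5 RPKM in Ctrl against 46.5 and 43.1 in MYCN KD and was not called. The part of these genes in the values of EZH2 and RBBP4 was not tested.

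*EED* (chromosome 11, 85912254 to 85989855, plus strand), the subunit that binds methylated lysine 27, stood at 8.92 and 10.3 RPKM in Ctrl against 8.06 and 7.01 in MYCN KD. The groups did not overlap, but the log2 fold change of -0.32 (SE 0.106, 95% interval -0.63 to -0.0035) missed the threshold after adjustment (adjusted p = 0.0853). Without Ctrl replicate 1 or MYCN KD replicate 1 the log2 fold change of EED was -0.41 or -0.40. Without Ctrl replicate 2 or MYCN KD replicate 2 it was -0.22 or -0.23. In these fits the lone sample is assumed to vary like the other group. EED missed the threshold in limma with samples rescaled to 1 total (adjusted p = 0.164) and with the replicate block (adjusted p = 0.145). It passed with quantile normalization (adjusted p = 0.0306). *SUZ12* (chromosome 17, 30264026 to 30328057, plus strand) stood at 9.51 and 12.1 RPKM in Ctrl against 10.6 and 8.42 in MYCN KD. Relative to its mean, SUZ12 had the widest replicate gap of the members in both conditions, and the groups overlapped (log2 fold change -0.17, 95% interval -0.67 to 0.34, adjusted p = 0.469). Its near copy SUZ12P1, a pseudogene on the same chromosome, was listed at 6.17 to 8.85 RPKM, and reads that fit both could be split between them.

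*RBBP4* (chromosome 1, 33116743 to 33151812, plus strand) stood at 15.5 and 16.5 RPKM in Ctrl against 11.9 and 11.2 in MYCN KD. Both MYCN KD samples were below both Ctrl samples, and RBBP4 fell by 0.44 on the log2 scale (SE 0.0567, 95% interval -0.60 to -0.27, adjusted p = 0.0118 in limma). Its call held in each alternative run on single genes. In the annotation 22.8% of its exonic bases overlap exons of SYNC, which had 1 to 6 reads per sample. Its close paralog *RBBP7* (chromosome X, 16857406 to 16888485, minus strand) stood at 67.1 and 71.3 RPKM in Ctrl against 68.4 and 64.6 in MYCN KD. The RBBP7 values overlapped (log2 fold change -0.06, 95% interval -0.22 to 0.10, adjusted p = 0.445), and the sign turned, to 0.0046, when samples were rescaled to 1 total. TXLNG shares 179 of the exonic bases of RBBP7. The share of RBBP4 in the sum of the pair was 18.8% and 18.8% in Ctrl against 14.8% and 14.8% in MYCN KD, a difference of -3.98 percentage points (two-sided exact permutation p = 0.3333, the smallest possible).

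*JARID2* (chromosome 6, 15246300 to 15522273, plus strand), which helps to recruit PRC2, stood at 8.81 and 9.36 RPKM in Ctrl against 8.43 and 7.97 in MYCN KD. The groups did not overlap, but the log2 fold change of -0.13 (95% interval -0.29 to 0.03) missed the threshold (adjusted p = 0.131). The antisense row JARID2-AS1 held at most 4 reads in a sample.

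**Figure D2:**
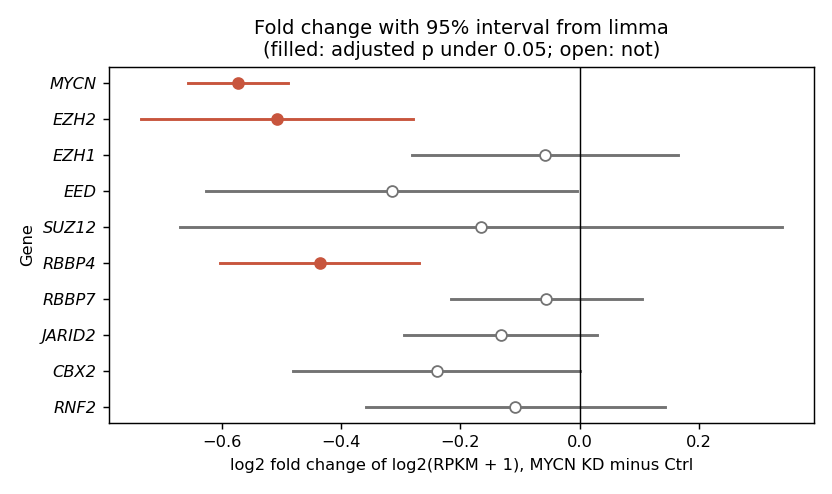
Log2 fold change of log2(RPKM + 1), MYCN KD minus Ctrl, for MYCN and the 9 tested Polycomb genes, as points with 95% intervals from limma, filled where the adjusted p was under 0.05. MYCN, EZH2 and RBBP4 are filled, and of the open points only EED has an interval that ends below 0, at -0.0035.

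Of the PRC1 members, the chromodomain protein *CBX2* (chromosome 17, 77751947 to 77761782, plus strand) stood at 23.6 and 21.4 RPKM in Ctrl against 18.0 and 19.8 in MYCN KD. The groups did not overlap. For CBX2 a log2 fold change of -0.24 (SE 0.0818, 95% interval -0.48 to 0.001) missed the threshold (adjusted p = 0.0881). With a sample left out the log2 fold change of CBX2 ranged from -0.31 to -0.17. The E3 ligase *RNF2* (chromosome 1, 185014658 to 185071735, plus strand) stood at 5.61 and 6.31 RPKM in Ctrl against 5.77 and 5.15 in MYCN KD. The RNF2 values overlapped (log2 fold change -0.11, 95% interval -0.36 to 0.14, adjusted p = 0.353).

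*BMI1* (chromosome 10, 22610028 to 22620413, plus strand) was below the filter, at 0.897 and 0.821 RPKM in Ctrl against 0.572 and 0.631 in MYCN KD. The values rest on 105 and 90 reads in Ctrl and 57 and 67 reads in MYCN KD, and the groups did not overlap. The exact 95% Poisson interval of the lower Ctrl count (72.4 to 111 reads) overlapped that of the higher MYCN KD count (51.9 to 85.1 reads). These intervals cover counting error only, and roughly, as the counts had been adjusted. Without a filter, over 19908 genes of which 30.0% were called, BMI1 was lower in MYCN KD (log2 fold change -0.21, SE 0.0391, adjusted p = 0.0374). The readthrough gene COMMD3-BMI1 shares 1000 of the 4395 exonic bases of BMI1 in GENCODE and was listed at 0 in all samples, while COMMD3, just upstream, had 10.3 to 12.2 RPKM. Whether reads in the shared exons were left out of the BMI1 row was not tested, so its level is uncertain.

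Of the other chromodomain proteins of canonical PRC1, *CBX6* fell from 88.9 and 76.1 RPKM to 30.0 and 35.0 (log2 fold change -1.32, SE 0.120, adjusted p = 0.00659). *CBX8* stood at 16.4 and 14.4 RPKM in Ctrl against 12.6 and 14.2 in MYCN KD (adjusted p = 0.193). CBX7 was listed at 0.355 to 0.486 RPKM.

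Among the PCGF proteins, PCGF1 and PCGF2 (MEL18, the closest paralog of BMI1) led in all samples, with shares of 34.4% to 38.3% of the summed RPKM. Neither was called (PCGF1 log2 fold change -0.01, 95% interval -0.19 to 0.17, and PCGF2 0.05, -0.14 to 0.23). *PCGF6*, which joins MGA and L3MBTL2 in a variant PRC1, fell from 5.23 and 6.23 RPKM to 3.10 and 2.62 (log2 fold change -0.80, SE 0.112, adjusted p = 0.0137). *PCGF3* rose from 12.1 and 13.3 RPKM to 17.2 and 15.6 (log2 fold change 0.35, adjusted p = 0.0359), a call lost in 4 of 12 alternatives. *PCGF5* stood at 2.16 and 2.60 RPKM in Ctrl against 3.26 and 2.73 in MYCN KD and was not called (adjusted p = 0.149). BMI1 made up 1.12% and 1.04% of the PCGF sum in Ctrl and 0.708% and 0.767% in MYCN KD, shares that carry the uncertainty of its row.

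**Figure D3:**
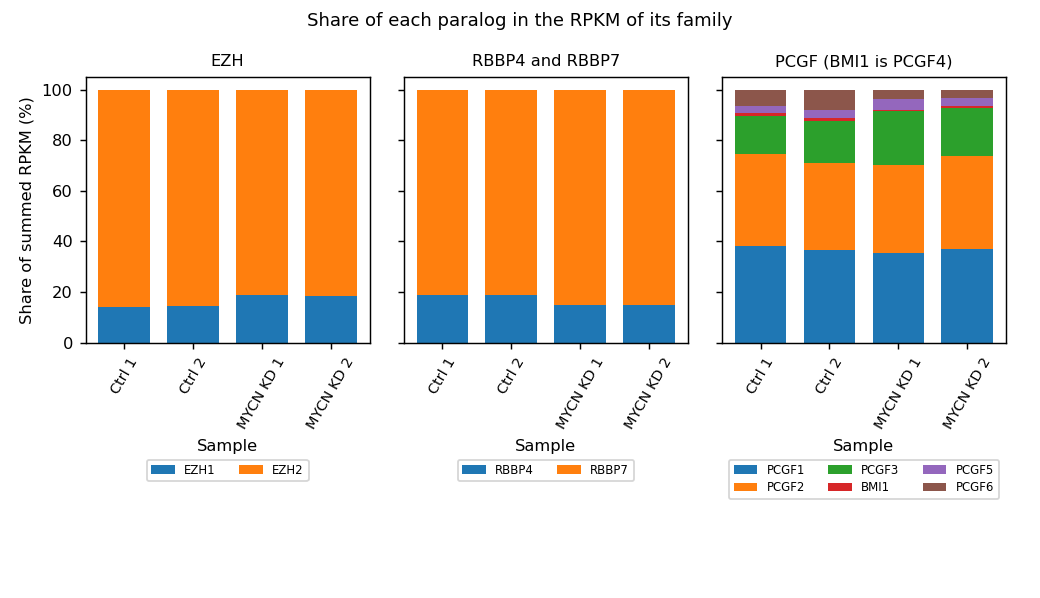
Stacked bars of the share (%) of each paralog in the summed RPKM of the EZH, RBBP4 and RBBP7, and PCGF families, 1 bar per sample. The mean share of EZH1 is 14.3% in Ctrl and 18.6% in MYCN KD, and that of RBBP4 is 18.8% and 14.8%.

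Of the PHC proteins, which polymerize canonical PRC1, 0 of 3 were called. PHC1 had a log2 fold change of 0.00053 (95% interval -0.26 to 0.26), PHC2 of -0.11 (-0.31 to 0.09) and PHC3 of 0.21 (-0.21 to 0.64). RING1, the paralog of RNF2, was listed at 0.00300 to 0.00660 RPKM, and 38 of the 42 listed genes within 500 kb of it had a mean below 1 RPKM, against 56.7% of all listed genes. The level of RING1 relative to RNF2 was therefore not read from these values.

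The wider Polycomb machinery comprised 50 further genes, of which 43 passed the filter. Of these, 7 were called higher and 11 lower, with a median log2 fold change of -0.01 and a range of -1.32 to 0.93. Over all tested genes 25.3% were called higher and 22.8% lower, shares to set beside each list that follows. With samples rescaled to 1 total, 9 were called higher and 5 lower, against 3279 higher and 2122 lower of all 11411 tested genes. Of 12 other canonical PRC1 genes, 10 were tested, 2 were lower and 0 higher. Besides CBX6 this was SCML2 (log2 fold change -0.28, adjusted p = 0.0356), a call lost in 7 of 12 alternatives.

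Of 7 accessory subunits and cofactors of PRC2, 5 were tested, 1 fell and 1 rose. *EPOP*, listed under its older symbol C17orf96, fell from 8.51 and 8.16 RPKM to 3.35 and 3.50 (log2 fold change -1.08, SE 0.0474, adjusted p = 0.00359). *LCOR*, whose locus encodes the PRC2 cofactor PALI1 in some isoforms, rose from 1.57 and 2.02 RPKM to 4.01 and 3.14 (log2 fold change 0.71, SE 0.141, adjusted p = 0.0280), and the values do not tell its isoforms apart. AEBP2 (log2 fold change -0.10, adjusted p = 0.526) and PHF19 (0.11, adjusted p = 0.168) were not called.

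In variant PRC1, 13 of 13 genes were tested, with 4 higher and 3 lower, against 25.3% and 22.8% of all tested genes. *RYBP*, which takes the place of CBX proteins in variant PRC1, rose from 17.3 and 20.4 RPKM to 39.7 and 33.8 (log2 fold change 0.93, SE 0.126, adjusted p = 0.0129). Its paralog YAF2 had a log2 fold change of -0.01 (95% interval -0.12 to 0.10). The corepressor *BCORL1* rose from 2.90 and 2.74 RPKM to 4.39 and 4.64 (log2 fold change 0.53, adjusted p = 0.00704). *KDM2B*, which brings a variant PRC1 to CpG islands, fell from 17.6 and 17.6 RPKM to 12.4 and 12.4 (log2 fold change -0.47, SE 0.0355, adjusted p = 0.00510).

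Of 11 genes whose products remove ubiquitin from H2A or assist in it, 10 were tested, with 5 lower and 1 higher. The shares over all tested genes were 22.8% lower and 25.3% higher. *HCFC1*, which also serves in other complexes, fell from 52.1 and 45.2 RPKM to 33.4 and 38.4 (log2 fold change -0.43, adjusted p = 0.0488), a call lost in 4 of 12 alternatives. The forkhead factor FOXK2 (-0.34, adjusted p = 0.00730) and ASXL2 (-0.29, adjusted p = 0.0320) were lower and MBD5 (0.24, adjusted p = 0.0209) higher, with the calls lost in 1 of 12, 6 of 12 and 6 of 11 alternatives. OGT (log2 fold change 0.05, adjusted p = 0.666) and ASXL1 (0.08, adjusted p = 0.226) were not called.

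Of 7 H3K27 demethylases and DNA-binding or MBT proteins, 5 were tested, with 1 higher and 0 lower. *SFMBT2* rose from 5.96 and 6.88 RPKM to 9.79 and 8.53 (log2 fold change 0.45, adjusted p = 0.0367), a call lost in 1 of 12 alternatives. The demethylase KDM6B (log2 fold change 0.02, 95% interval -0.22 to 0.27) and SFMBT1 (-0.13, -0.25 to -0.02) were not called.

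**Figure D4:**
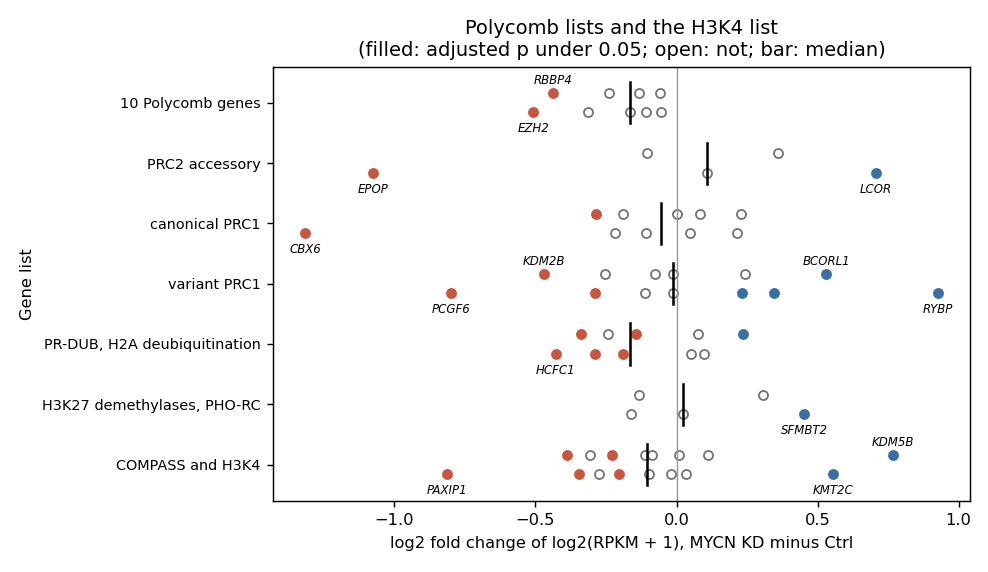
Log2 fold change of log2(RPKM + 1), MYCN KD minus Ctrl, of each tested gene (1 point each) in the 10 Polycomb genes, the wider Polycomb lists and the COMPASS and H3K4 list, red where called lower, blue where called higher and open where not called, with a bar at each median. The 9 tested Polycomb genes lie left of 0, from -0.51 to -0.06 (RBBP7 turns to 0.0046 with samples rescaled to 1 total, and EZH1 to 0.0044 without Ctrl replicate 2 and 0.0015 without MYCN KD replicate 2), and each other list has points on both sides on the scale as deposited.

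For comparison, 16 genes of the COMPASS H3K4 methyltransferases and the KDM5 demethylases, which act on the opposing mark, were all tested. Of these, 5 were lower and 2 higher, against 22.8% and 25.3% of all tested genes, with a median log2 fold change of -0.10. With samples rescaled to 1 total, 3 were lower and 2 higher, against 2122 lower and 3279 higher of all 11411 tested genes. Of these genes PAXIP1 (-0.82, adjusted p = 0.00633) and SETD1A (-0.39, adjusted p = 0.0389) were lower, and KDM5B (0.77, adjusted p = 0.0107) and KMT2C (0.56, adjusted p = 0.0223) were higher, and the call of SETD1A was lost in 2 of 12 alternatives. KMT2A (log2 fold change 0.0098) and SETD1B (-0.02) were not called.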

How the data were processed

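RNA-seq from 2 Ctrl and 2 MYCN KD samples, grouped by their labels, was analysed. The authors aligned reads to hg19 with HISAT2 2.1.0, counted them per RefSeq gene with featureCounts, normalized the counts with DESeq2 and RUVSeq and turned them into RPKM, the unit deposited per sample. The number of RUVSeq factors, and whether counting used strand, are not given in the sources used here.

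Whole reads were recovered from the RPKM steps. Totals were set from small RNA genes, of which 92.9% to 94.1% came out whole, and all 19908 genes above 0 (100.0%) then gave whole reads within 0.002 reads.

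The test was limma 3.58.1 (R 4.3.3; lmFit, eBayes with a trend, two-sided, no block) on log2(RPKM + 1), restricted to means of 1 RPKM or more, with Benjamini-Hochberg adjustment over all 11411 genes and a threshold of 0.05. It was tested on simulated data whose samples were drawn independently. Those data lack the opposite replicate gaps seen here, so the error estimate under such gaps was not tested. Shares were compared by exact permutation over samples. Python 3.11.15 with numpy 2.4.6, pandas 2.3.3 and scipy 1.17.1 was used, and positions came from GENCODE release 44 on GRCh37.

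The members and lists were chosen with earlier results of these data known. Named genes were the members, MYCN, paralogs, overlapping rows and, per list, up to 4 called genes with the largest and 2 genes with the smallest absolute change (3 called genes for the cell cycle). Alternatives were a pseudocount of 0.1, no filter or a minimum of 5 RPKM, rescaled totals, quantile normalization, no trend, the replicate block, limma voom on recovered reads and each sample left out. ChIP-seq and MNase-seq of the study were not analysed here, and 1 paralog is not reported here.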

Additional observations from a re-analysis of the deposited data

How the results depend on the processing

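MYCN, EZH2 and RBBP4 were lower and past the threshold in all alternatives run on single genes. With quantile normalization EED (-0.35, adjusted p = 0.0306) and JARID2 (-0.17, adjusted p = 0.0389) also passed, so that 4 members were lower instead of 2. Of all 11411 tested genes 2993 were lower with quantile normalization, against 2599 in the main fit. With samples rescaled to 1 total RBBP7 changed sign, to 0.0046. With a sample left out, the log2 fold change ranged from -0.12 to 0.0044 for EZH1, from -0.41 to -0.22 for EED, from -0.31 to -0.17 for CBX2, from -0.33 to -0.0048 for SUZ12, from -0.18 to -0.035 for RNF2 and from -0.098 to -0.013 for RBBP7. The members' median ranged from -0.18 to -0.094.

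Of the wider Polycomb genes 11 were lower, against 7 without a filter, 5 with rescaled totals, 5 with the replicate block and 6 to 8 with a sample left out. The 7 higher became 3 with a minimum mean of 5 RPKM, 4 with the replicate block and 4 to 9 with a sample left out. Of the H3K4 genes 5 were lower, against 3 without a filter, 3 with rescaled totals, 3 with the replicate block and 2 to 5 with a sample left out. Without Ctrl replicate 1 or without MYCN KD replicate 1, 6 wider genes were lower and 4 higher, and 7 were lower without MYCN KD replicate 2. The H3K4 genes lower were 3 without Ctrl replicate 1 and 2 without MYCN KD replicate 1. A minimum mean of 5 RPKM left 7859 genes tested and 1868 of them higher, against 2890. The wider genes no longer counted as higher, such as LCOR and BCORL1, had means below 5 RPKM and were not tested there. Over all genes 2599 of 11411 were lower in the main fit, against 2594 of 19908 without a filter. Rescaled totals gave 2122 lower, and the replicate block gave 1851 lower and 2077 higher, each of 11411.

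Both conditions have replicates 1 and 2 in the labels, but same-numbered samples deviated in opposite directions (correlation -0.985 over 11411 genes), so the numbers were not taken as pairs. With the replicate block 2077 genes were higher and 1851 lower, and EZH2 (-0.51, adjusted p = 0.00404) and RBBP4 (-0.44, adjusted p = 0.0256) were again the 2 members called. Crossed pairing, chosen after seeing the data, joins the samples that deviated together. It gave 5910 genes higher and 5262 lower of the 11411, so nearly every tested gene was called. Its counts for the lists are therefore not read as results about them. They were 9 members lower, 22 wider Polycomb genes lower and 19 higher, and 11 H3K4 genes lower and 5 higher.

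With quantile normalization the share differences, in percentage points, were 3.53 for EZH1 and -3.53 for EZH2, -4.61 for RBBP4 and 4.61 for RBBP7, and -0.491 for BMI1. The share of RING1 rests on 1 to 2 reads per sample and is not interpreted, and its difference turned from 0.0435 to -0.0223 (that of RNF2 from -0.0435 to 0.0223). For these changes the cause was not tested. At 57 to 105 reads, counting error limits BMI1.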
